A study of Mus musculus with 6 samples.

Results

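The cells described here were crypt barcodes of low depth that were rich in transcripts of the Hist1 histone cluster. Each droplet has its own barcode, and each transcript molecule that was captured is counted once through its unique molecular identifier (UMI). Barcodes with at least 1000 and below 10000 UMIs, at least 500 genes and at most 20% of UMIs in mitochondrial genes were called shallow. A shallow barcode was taken as a histone-rich cell when the genes whose symbol starts with Hist1h held at least 0.5% of its UMIs and fewer than 3 of 6 genes (Areg, Pfkfb3, Edn1, Creb3l3, Apob and Myo15b) were detected. This rule gave 1012 cells, 8.634% of the 11721 shallow barcodes and 5.917% of the 17104 barcodes of at least 1000 UMIs that met the same limits on genes and mitochondrial UMIs. The members were chosen by their Hist1h level, so that level and the 6 genes are given as a description. No test of these genes is read as a result.

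The libraries came from ileal crypts of mice on the C57BL/6J background, aged 8 to 12 weeks according to the methods of the study. Epithelial cells were sorted by the surface protein EpCAM, and their RNA was sequenced cell by cell in droplets (MobiNova-100). The control group, Fpr2f/f (labelled WT), carried a floxed gene for formyl peptide receptor 2 and no Cre, and the Fpr2VKO group carried the same floxed gene with Cre recombinase under the Villin promoter, which is active in intestinal epithelium. Each group had 3 libraries, and the animals were matched for age and sex. The labels do not say whether the libraries came from separate animals, whereas the legends of the study give their n as mice, and each p-value measures the spread between these libraries. Fpr2 had 0 UMIs in the kept barcodes and in the barcodes below 100 UMIs of all 6 libraries, so its loss could not be checked.

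Replication-dependent histones are made mainly in S phase, when newly copied DNA has to be packed into nucleosomes. The core histones H2A, H2B, H3 and H4 form the nucleosome and linker histone H1 binds the DNA between nucleosomes. Most of their genes lie in clusters, the largest of which, Hist1, is on chromosome 13 in the mouse. Their mRNAs usually end in a short stem-loop, bound by the protein Slbp, in place of a poly(A) tail, whereas mRNAs of the replication-independent histones are polyadenylated. In the small intestine, dividing cells are found in the crypt, as stem cells at its base and as transit-amplifying cells above them.

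The stem-loops of the leading Hist1h genes are shown because this element sets these mRNAs apart from others. A match of 16 bases to the histone 3′ stem-loop lay after the coding end in 37 of the 54 Hist1h genes (68.5%), and anywhere in a transcript in 134 of 55450 annotated genes (0.242%, the Hist1h genes included). These matches had 7 distinct sequences and began 24 to 46 bases after the coding end, with a median of 31. The most frequent form was found in 20 genes, Hist1h1e and Hist1h1c among them. A form with another stem was found in 6 genes of histone H4, Hist1h4d and Hist1h4c among them, and a form with A at the loop's end in 6 genes that include Hist1h3e. The Hist2 cluster genes Hist2h4 and Hist2h2ac, which the rule did not use, are shown beside them: Hist2h4 had a form that Hist1h4i also has, and Hist2h2ac a form that none of these Hist1h genes has. Capitals mark the loop of 4 bases, in the DNA letters of build GRCm38.
Hist1h1e, Hist1h1c and 18 others: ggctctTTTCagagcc
Hist1h4d, Hist1h4c, Hist1h4f, Hist1h4h and 2 others: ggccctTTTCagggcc
Hist1h3e and 5 others: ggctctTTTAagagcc
Hist2h4: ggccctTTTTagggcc
Hist2h2ac: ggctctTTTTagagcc
The remaining 17 Hist1h genes, Hist1h1b, Hist1h2bc and Hist1h2ak among them, had no match in their annotated transcripts, which says only that these letters are not in the annotated transcript. The annotated transcripts of 17 genes ran over 100 bases past the stem-loop, and these genes held 53% of the Hist1h UMIs of the histone-rich cells and 5 of the 10 leading genes. A further 20 genes whose transcripts ended within 100 bases of the stem-loop held 21.9%, and the 17 genes without a match held 25.1%. The median gene of these groups, in the same order, held 401, 298.5 and 380 UMIs. Hist1h1e and Hist1h4d, both in the first group, held 18.2% and 11.2% of the Hist1h UMIs.

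The promoters of the 3 leading Hist1h genes are shown to let the shared promoter elements be read beside the levels. The sequences are RefSeq windows of build GRCm38.p6, from 250 bases before to 50 bases after the start, and 50 of the 54 Hist1h genes matched the table, with 51 promoters. Capitals mark the letters TATAAA (the TATA box), the letters CCAAT (the CCAAT box) and the letters AAACACA (an element of H1 promoters), on either strand. Hist1h1e was read at chr13:23622509-23622808 (minus strand), Hist1h4d at chr13:23581318-23581617 (plus strand) and Hist1h1b at chr13:21780576-21780875 (minus strand).
Hist1h1e: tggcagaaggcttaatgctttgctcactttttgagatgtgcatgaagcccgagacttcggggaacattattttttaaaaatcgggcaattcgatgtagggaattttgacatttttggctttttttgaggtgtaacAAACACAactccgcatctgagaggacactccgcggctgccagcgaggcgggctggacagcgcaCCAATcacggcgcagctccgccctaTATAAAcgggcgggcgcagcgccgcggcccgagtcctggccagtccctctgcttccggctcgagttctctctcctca
Hist1h4d: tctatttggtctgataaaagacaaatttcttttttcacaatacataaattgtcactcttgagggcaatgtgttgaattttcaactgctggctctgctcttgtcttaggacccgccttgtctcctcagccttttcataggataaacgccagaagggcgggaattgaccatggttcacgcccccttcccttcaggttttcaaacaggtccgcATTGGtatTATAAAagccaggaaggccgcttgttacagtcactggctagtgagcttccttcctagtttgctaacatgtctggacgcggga
Hist1h1b: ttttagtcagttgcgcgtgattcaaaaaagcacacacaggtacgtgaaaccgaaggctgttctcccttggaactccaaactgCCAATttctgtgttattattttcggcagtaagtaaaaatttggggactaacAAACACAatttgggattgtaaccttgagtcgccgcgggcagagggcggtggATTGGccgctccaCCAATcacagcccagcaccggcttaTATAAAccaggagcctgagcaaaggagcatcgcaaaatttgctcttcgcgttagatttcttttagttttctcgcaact
TATAAA was found in 31 of the 51 Hist1h promoters (60.8%) and in 13.6% of all 32851 promoters of the same length. CCAAT was found in 43 of 51 (84.3%), against 37.4% of all promoters. All promoters of H1, H2A, H2B and H3 genes held CCAAT, and 3 of 11 promoters of H4 genes did. AAACACA was found in 5 of 6 promoters of H1 genes and in 9 of 51 overall (17.6%, against 7.18% of all promoters). ATTTGCAT was found in 11 of 51 promoters (21.6%, against 1.74%), 5 of 12 of H2A genes and 6 of 15 of H2B genes. Each motif was searched on both strands, and a match describes letters and not a bound site.

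The libraries held between 90142126 and 189516114 UMIs in all. Between 1868 and 4722 barcodes per library met the limits on UMIs, genes and mitochondrial UMIs, and 1067 to 3726 of them were shallow. Fpr2f/f replicate 2 stood apart: it held 483 of the 1012 histone-rich cells (47.73%). Counts of calls by genotype (with no replicate block) and against deep barcodes are given with and without it. Results with the replicate block and shares pooled over all libraries include it. Of 16980 distinct barcode sequences among the kept barcodes, 123 occurred in 2 or more libraries (0 to 23 per pair of libraries), and none of them was a histone-rich cell in both. No doublet caller was run, and doublets were not removed.

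The histone-rich cells numbered 109, 483 and 133 in Fpr2f/f replicates 1 to 3 and 76, 127 and 84 in Fpr2VKO replicates 1 to 3. As a share of the shallow barcodes they made up 5.80%, 12.96% and 6.43% in Fpr2f/f replicates and 5.27%, 8.24% and 7.87% in Fpr2VKO replicates. The groups overlapped, and Fpr2f/f replicate 2 was above all others. The mean share was 8.40% ± 3.96 in Fpr2f/f and 7.13% ± 1.62 in Fpr2VKO (SD, n = 3 each), a difference (Fpr2VKO minus Fpr2f/f) of -1.27 percentage points (exact permutation test, two-sided, p = 0.8, where 0.1 is the smallest p that 3 against 3 libraries allow). Without Fpr2f/f replicate 2 the difference was 1.01 percentage points, in the other direction. With a mitochondrial limit of 10% the mean share was 12.5% ± 11.1 in Fpr2f/f and 6.16% ± 2.75 in Fpr2VKO, a difference of -6.34 percentage points (exact permutation test, p = 0.6). Under both limits the difference between genotypes was smaller than the spread between libraries.

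**Figure D1:**
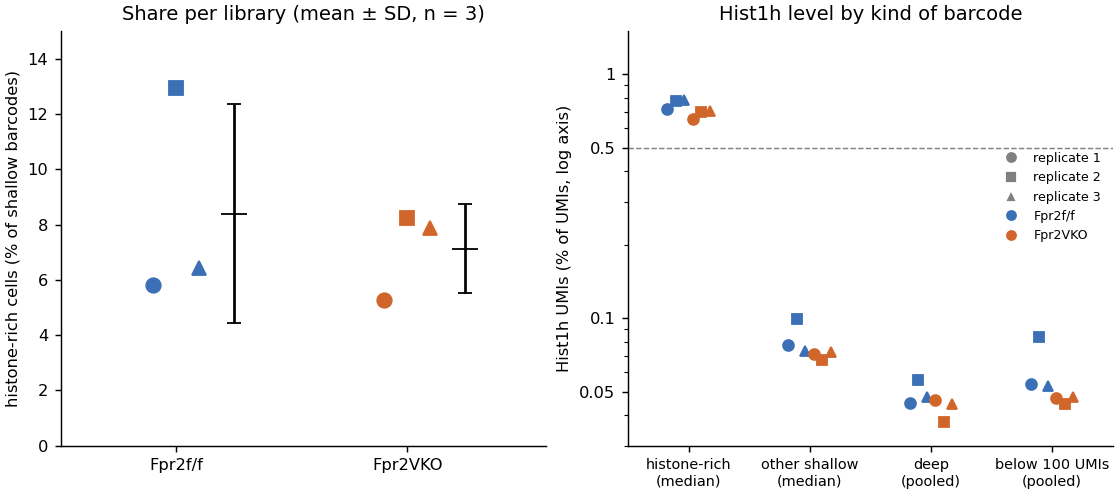
The left panel plots the histone-rich cells as a percentage of the shallow barcodes in each library, with mean and SD of 3 libraries per genotype, and shows Fpr2f/f replicate 2 at 12.96% above the other 5 libraries (5.27% to 8.24%). The right panel plots Hist1h UMIs as a percentage of UMIs on a log axis for histone-rich cells and other shallow barcodes (medians) and for deep barcodes and barcodes below 100 UMIs (pooled), with the 0.5% limit of the rule as a dashed line.

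The histone-rich cells had a median of 4046 UMIs, with library medians from 2437 (Fpr2f/f replicate 1) to 4833 (Fpr2VKO replicate 1). The other shallow barcodes below both limits, 7873 in number, had library medians from 2253 to 4347 UMIs. The median histone-rich cell held 30 Hist1h UMIs (6 to 216) from 16 Hist1h genes (3 to 42), so the histone signal of a cell came from many genes of the cluster and not from 1. The library medians of the mitochondrial share were 10.3% to 15.3% in histone-rich cells and 13.6% to 15.8% in the other shallow barcodes.

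The Hist1h level formed a range with no gap at the limit. The median over the histone-rich cells was 0.741% of UMIs, 223 cells were at 1% or above, 15 at 2% or above, and the highest reached 3.326%. The lowest histone-rich cell was at 0.500132% and the highest barcode outside the limit at 0.499847%. Just inside the limit, 258 cells lay below 0.6%, and just outside it, 343 other shallow barcodes lay at 0.4% or above. Library medians were 0.719%, 0.777% and 0.787% in Fpr2f/f and 0.652%, 0.697% and 0.706% in Fpr2VKO. Library medians of the other shallow barcodes lay between 0.0672% and 0.0996%. Barcodes below 100 UMIs, which hold mostly free RNA, had 0.0445% to 0.0837% of their UMIs in Hist1h genes, and deep barcodes (at least 10000 UMIs) 0.0374% to 0.0561%. The level in histone-rich cells was thus far above that of free RNA in each library, as the rule requires.

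Of the 6 genes of the rule, 280 histone-rich cells had none detected, 419 had 1 and 313 had 2. Another 207 shallow barcodes reached the Hist1h limit but had 3 or more of the 6 genes and were left out by the rule. The Hist1h limit was reached by 7.3% of the shallow barcodes with 3 or more of the 6 genes and by 11.4% of those with fewer.

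All 8 markers of epithelium that were examined were detected. Epcam, the surface protein used for the sort, had 1481 ± 125 CPM (UMIs of the gene per 1000000 UMIs of the library sum; SD over 6 libraries) in histone-rich cells and 1394 ± 107 CPM in the other shallow barcodes. The 8 markers summed to 4426 ± 263 CPM in histone-rich cells, against 5730 ± 242 CPM in the other shallow barcodes. In barcodes below 100 UMIs they summed to 3613 ± 370 CPM. Library values were 4136 to 4898 CPM in histone-rich cells and 3283 to 4274 CPM below 100 UMIs. These ranges overlapped, so detection alone says little. Calls on these markers are given with the mature cell types below. Markers of B, plasma and myeloid cells summed to 1.351 to 8.63 CPM, with 3 of 8 genes at 0, and those of stromal, endothelial and red cells to 3.152 to 7.106 CPM, with 1 of 8 at 0. Markers of T lymphocytes summed to 7.158 to 53.59 CPM with all 9 genes detected, below the 177.2 to 634.3 CPM of barcodes with fewer than 100 UMIs.

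The 54 Hist1h genes gave 36529 UMIs in the histone-rich cells, and 51 of them had at least 1 UMI. The 4 marker genes Hist1h1e, Hist1h4d, Hist1h1b and Hist1h4c held 39.8% of these UMIs and the 10 leading genes 61.2%. UMIs count molecules and were not divided by transcript length, and histone genes of 1 class are so alike that reads may have been split between them or dropped, so the share of a single gene is uncertain.

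Hist1h1e (ENSMUSG00000051627, GRCm38 chromosome 13, 23620629 to 23622558, minus strand), which encodes a linker histone H1, led with 18.2% of the Hist1h UMIs. Its level was 1393, 1652 and 1482 CPM in Fpr2f/f and 1439, 1444 and 1490 CPM in Fpr2VKO. In the other shallow barcodes it lay between 143.8 and 245.2 CPM. The level was thus much the same in all 6 libraries.

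Hist1h4d (ENSMUSG00000061482, chromosome 13, 23581598 to 23582735, plus strand), a gene for core histone H4, had 685.7, 1060 and 997.6 CPM in Fpr2f/f and 640.5, 959.2 and 854.4 CPM in Fpr2VKO, against 53.72 to 113.3 CPM in the other shallow barcodes. Hist1h1b (chromosome 13, 21779883 to 21780625, minus strand), another linker histone gene, had 454.4 to 564.9 CPM against 50.58 to 68.57 CPM. Hist1h4c (chromosome 13, 23697635 to 23698454, minus strand), a second H4 gene, had 255.8 to 433.0 CPM against 27.8 to 63.06 CPM. For both H4 genes the 2 replicates numbered 1 were the lowest of the 6 libraries, whereas Hist1h1b was highest in Fpr2f/f replicate 1. The other genes among the leading 10 were Hist1h3e, Hist1h1c, Hist1h4h, Hist1h2bc, Hist1h2ak and Hist1h4f.

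By class, H1 genes held 32.9% ± 2.07 of the Hist1h UMIs of histone-rich cells (SD over 6 libraries), H4 genes 26.6% ± 3.33, H2A genes 13.9% ± 0.616, H3 genes 13.7% ± 0.984 and H2B genes 12.9% ± 1.65. In the other shallow barcodes H2B genes held 28.1% ± 4.04 and H4 genes 18.8% ± 2.80. Hist1h2bc, an H2B gene, had 305.3 ± 66.4 CPM in histone-rich cells and 217.3 ± 27.5 CPM in the other shallow barcodes, a far smaller gap than that of the other leading genes. For 48 of the 54 genes the level in each library of histone-rich cells was above that in each library of other shallow barcodes, which follows in large part from the rule.

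**Figure D2:**
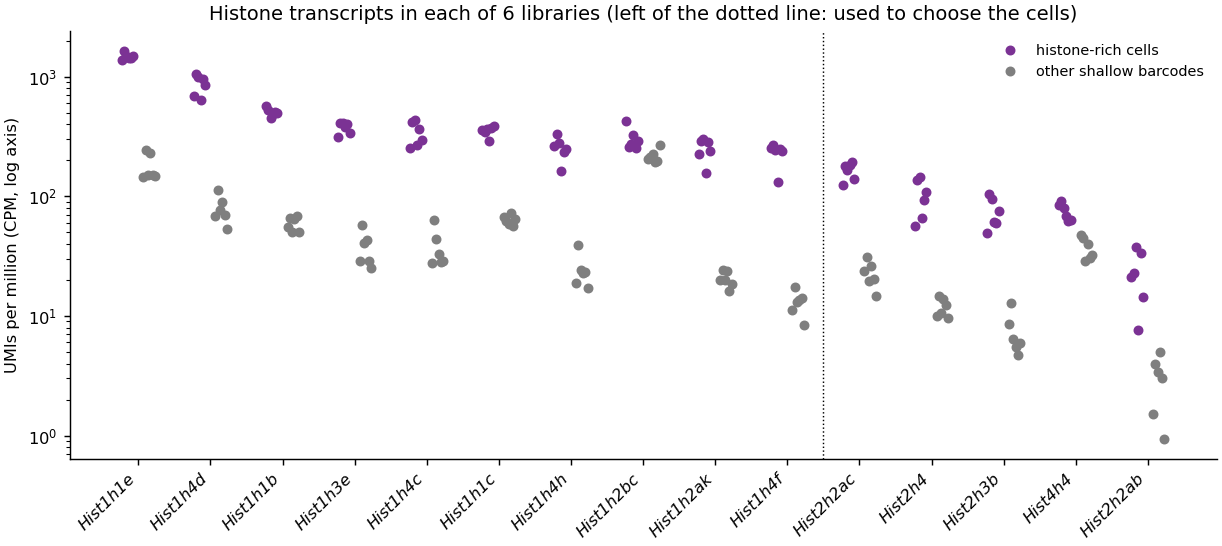
CPM on a log axis in each of 6 libraries for the 10 leading Hist1h genes (left of the dotted line, used by the rule) and 5 genes of the Hist2h and Hist4h groups (right, not used by the rule), in histone-rich cells and in other shallow barcodes. Hist1h2bc is the leading Hist1h gene with the smallest gap, and each of the 5 genes on the right was higher in every library of histone-rich cells than in any library of other shallow barcodes.

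Genes outside the rule were compared between histone-rich cells and the other shallow barcodes of the same libraries. UMIs were summed per library, the Hist1h genes and the 6 genes were taken out, and the edgeR quasi-likelihood test was fitted with the library as a block. The split rests on transcripts of the same cells, so a call says that a gene moved together with the Hist1h sum in these 6 libraries. Of 10984 genes, 4126 were called (37.6%), 2041 higher in histone-rich cells (18.6%) and 2085 lower (19.0%), at an adjusted p under 0.05 (Benjamini-Hochberg). When the sums were scaled to their total UMIs in place of TMM factors, 899 were called higher (8.18%) and 4234 lower (38.5%), and the median log2 fold change of all genes moved from -0.01 to -0.32. Changes are therefore given relative to the median gene, and the counts under scaling to total UMIs are given beside the lists whose calls they moved.

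The histone-rich cells also differed in 3 abundant transcripts, Peak1, Gm26917 and Gm42418, which led all genes outside the Hist1h and mitochondrial genes. Gm26917 and Gm42418 are annotated as noncoding RNA genes close together on chromosome 17 (39843013 to 39846341 and 39846958 to 39848788). Whether the UMIs counted at these 3 genes come from the genes' own transcripts was not tested. The summed share of the 3 had a median of 21.5% in histone-rich cells and 6.32% in the other shallow barcodes. A share of at least 10%, here called Peak1-rich, was reached by 968 of 1012 histone-rich cells (95.7%) and by 3054 of the other shallow barcodes (38.8%). Among histone-rich cells and other shallow barcodes together, of those with under 5% of UMIs in these transcripts, 5 of 3528 were histone-rich cells (0.142%), against 151 of 353 (42.8%) at 30% or above. The comparison was therefore repeated between histone-rich cells and other barcodes that were all Peak1-rich, where 636 of 7501 genes were called (8.48%; 332 higher, 4.43%, and 304 lower, 4.05%). The calls under this comparison are given beside those of the first one, and the part of these transcripts in the other differences was not tested further.

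Replication-dependent histone genes of other clusters, which the rule did not use, were higher in histone-rich cells. Reads may have been split between these genes and Hist1h genes of the same class, which was not tested. Of the 13 genes whose symbol starts with Hist2h, Hist3h or Hist4h, 8 had enough UMIs to be tested and 7 were called higher, with a median log2 fold change of 2.83 (all genes: -0.01). All 6 that could be tested among Peak1-rich barcodes were called higher there, with a median of 1.80, and 7 were called higher with scaling to total UMIs. Hist2h2ab, Hist2h3c2 and Hist2h3c1 had means of 2.978, 3.902 and 5.276 CPM in the other shallow barcodes. They may have passed the limit on UMIs only through the histone-rich cells, so their calls are not read as results. The count of 7 and the median of 2.83 include them. The called genes besides these were Hist2h2ac, Hist2h4, Hist2h3b and Hist4h4. With no limit on UMIs 8 of 11 genes were called higher. Of the 5 genes that were not tested, Hist2h2bb and Hist3h2a had 0 UMIs in histone-rich cells.

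Hist2h4 (GRCm38 chromosome 3, 96261682 to 96263311, minus strand), a gene for histone H4, had 56.85, 136 and 144.9 CPM in the histone-rich cells of Fpr2f/f and 66.34, 93.05 and 109.3 CPM in those of Fpr2VKO. In the other shallow barcodes it had 9.627 to 14.71 CPM. The ranges did not overlap, and the log2 fold change was 3.44 ± 0.152 (SE; edgeR adjusted p = 6.01e-71).

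Hist2h2ac (chromosome 3, 96220361 to 96220880, minus strand), a gene for H2A, had 124.4, 177.9 and 166.3 CPM in Fpr2f/f and 183.7, 193.3 and 141 CPM in Fpr2VKO, against 14.6 to 31.08 CPM in the other shallow barcodes (log2 fold change 3.18 ± 0.126, edgeR adjusted p = 1.39e-84). Its levels in histone-rich cells were above those in the other shallow barcodes of every library. Hist2h3b, a gene for H3, was higher by 3.66 ± 0.175 on the log2 scale. The smallest call was Hist4h4 at 1.36 ± 0.141, which is the only gene of its group on chromosome 6, and Hist2h2be was not called (0.64 ± 0.429, edgeR adjusted p = 0.25).

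A list of histone variants and replication-independent histones moved less. Of 11 genes, 10 were tested and 7 were called higher, with a median log2 fold change of 0.42. Among Peak1-rich barcodes 5 of 9 were called higher (median 0.27), and with scaling to total UMIs 3 were called higher and 2 lower. H2afx (chromosome 9, 44334694 to 44336077, plus strand), the H2A variant that is phosphorylated at DNA breaks, had 170.5, 270.6 and 279.9 CPM in Fpr2f/f and 273, 260.1 and 256 CPM in Fpr2VKO. In the other shallow barcodes H2afx had 71.46 to 88.94 CPM, below every value in histone-rich cells. Its log2 fold change was 2.00 ± 0.0974 (edgeR adjusted p = 1.33e-63) and 1.27 ± 0.0858 among Peak1-rich barcodes. H2afx was listed as a variant, and whether its mRNA is made apart from replication was not tested. H1f0, the linker histone of non-dividing cells, was higher by 0.97 ± 0.0967 (0.78 among Peak1-rich barcodes) and H2afz, the H2A.Z gene, by 0.44 ± 0.0831. The mean CPM of H2afz was 710.4 ± 72.9 in histone-rich cells and 668.9 ± 104.0 in other shallow barcodes, and its call was lost with scaling to total UMIs.

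Mitosis genes were higher in histone-rich cells. Of 20 genes, 19 were called higher and none lower, with a median log2 fold change of 1.06. Among Peak1-rich barcodes 17 of 20 were called higher (median 0.68), and with scaling to total UMIs 16 were. The summed level was 2619 ± 158 CPM in histone-rich cells, 1515 ± 207 CPM in the other shallow barcodes and 692 CPM in barcodes below 100 UMIs.

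Top2a, the topoisomerase that untangles sister chromatids, had 564.9, 457.1 and 451.1 CPM in Fpr2f/f and 571.6, 584.6 and 532.2 CPM in Fpr2VKO. In the other shallow barcodes Top2a had 226.8 to 290.4 CPM, and the log2 fold change was 1.39 ± 0.0840 (edgeR adjusted p = 9.41e-46). Neither range overlapped the other. Mki67, the proliferation marker Ki-67, had 344.6, 321.1 and 317.7 CPM in Fpr2f/f and 308.8, 326.9 and 333.7 CPM in Fpr2VKO, against 160 to 213.3 CPM (1.23 ± 0.0888, edgeR adjusted p = 2.8e-34). Ccna2, cyclin A2 of S and G2 phase, was higher by 1.59 ± 0.111, and Aurkb, the kinase that phosphorylates histone H3 in mitosis, by 1.88 ± 0.162. Ccnb1, cyclin B1 of the entry into mitosis, was the 1 gene of the list that was not called: it had 27.01 ± 3.46 CPM in histone-rich cells and 26.55 ± 4.25 CPM in the other shallow barcodes.

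The share of cells with mitosis transcripts was compared at equal depth, with each barcode thinned to 1000 UMIs. At least 1 UMI of the 20 mitosis genes was then found in 88.4% ± 3.07 of histone-rich cells (SD over 6 libraries), in 52.9% ± 5.28 of the other shallow barcodes, and in 40.4% ± 8.43 and 22.2% ± 8.92 of those other shallow barcodes with at least 1% of UMIs in the Paneth and T lymphocyte lists, which are shown for comparison. Without thinning the shares were 97.8%, 74.5%, 68.6% and 54.3%. With thinning, the lowest library of histone-rich cells (83.5%) was above the highest library of other shallow barcodes (59.5%). Free RNA also holds mitosis transcripts (692 CPM in barcodes below 100 UMIs), so a single UMI does not mark a dividing cell. At least 2 UMIs of 1000 were found in 67.9%, 32.6%, 20.1% and 4.37% of the same 4 kinds of barcode.

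DNA replication genes were also higher, but most of these calls were lost among Peak1-rich barcodes. Of 20 genes, 15 were called higher and none lower against all other shallow barcodes (median log2 fold change 0.70), 10 with scaling to total UMIs, and 4 against Peak1-rich barcodes (median 0.16, all genes 0.01). The summed level was 1170 ± 127 CPM in histone-rich cells and 895.6 ± 53.9 CPM in the other shallow barcodes. The 4 genes called in both were Rrm2, Rrm1, Tyms and Uhrf1. Rrm2, the small subunit of ribonucleotide reductase, had 63.95, 78.35 and 62.56 CPM in Fpr2f/f and 58.69, 90.67 and 89.18 CPM in Fpr2VKO, against 27.63 to 37.5 CPM (1.57 ± 0.143, edgeR adjusted p = 5.38e-23, and 0.99 ± 0.139 among Peak1-rich barcodes). Tyms, thymidylate synthase, was higher by 0.83 ± 0.146 and by 0.62 ± 0.148. Mcm7, a subunit of the replicative helicase, was higher by 1.06 ± 0.116 and had 0.21 ± 0.0995 among Peak1-rich barcodes, where it was not called. Pcna, the sliding clamp of DNA polymerase, had 223.0 ± 33.7 CPM and 205.0 ± 21.1 CPM, with a log2 fold change of 0.45 ± 0.0930 and of 0.14 ± 0.0827 among Peak1-rich barcodes, where it was not called.

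The mitosis level was already high in barcodes below the Hist1h limit of the rule. Pooled over libraries, the mitosis list summed to 876.4 CPM in other shallow barcodes with under 0.05% of UMIs in Hist1h genes, 1347 CPM at 0.05% to 0.1%, 1863 CPM at 0.1% to 0.25% and 2610 CPM at 0.25% to 0.5%. Above the limit it stayed between 2533 and 2764 CPM. The level in barcodes just below the limit was thus like that in histone-rich cells, and the limit marks no step in mitosis transcripts. The median share of Peak1, Gm26917 and Gm42418 went from 2.69% to 16.1% over the same 4 ranges, and from 19.9% to 25.2% over the 3 ranges between 0.5% and 2%.

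**Figure D3:**
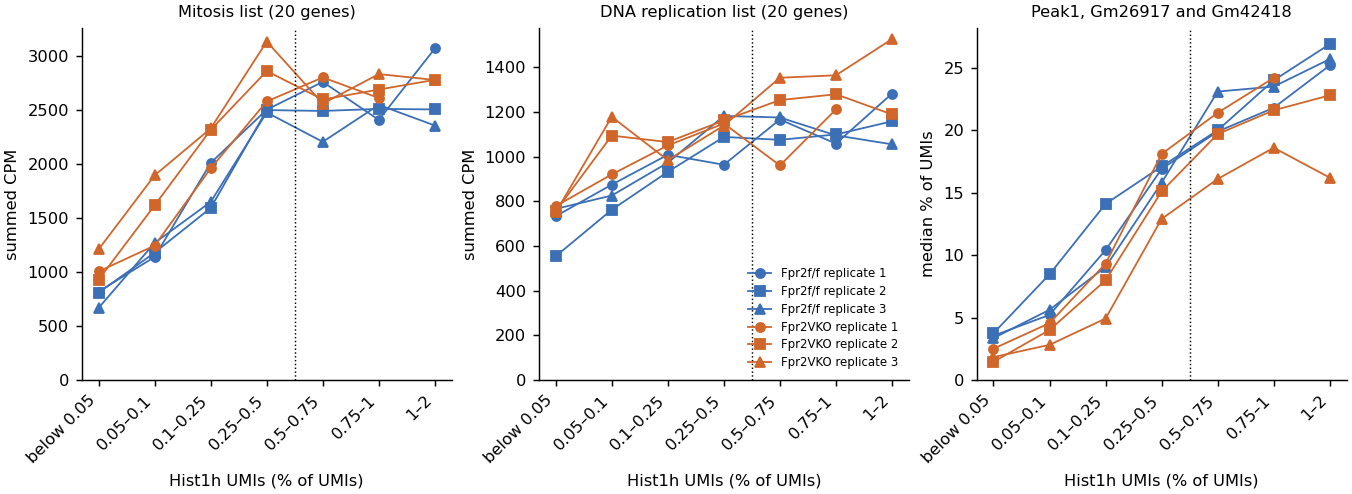
Shallow barcodes with fewer than 3 of the 6 genes, grouped by their Hist1h percentage of UMIs, with 1 line per library and groups under 10 barcodes left out: summed CPM of the mitosis list, summed CPM of the DNA replication list, and the median percentage of UMIs in Peak1, Gm26917 and Gm42418. The mitosis level climbs up to the range of 0.25% to 0.5% and lies between 2203 and 3067 CPM above the dotted line (the limit of the rule at 0.5%), whereas the share of the 3 transcripts goes on climbing in most libraries.

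Genes that act on histones were higher in part, relative to the median gene. Of 10 histone chaperone genes, 6 were called higher and none lower (median 0.47). Among Peak1-rich barcodes 2 were higher and 1 lower, and with scaling to total UMIs 3 were higher and 3 lower. Their summed level was 1009 ± 80.5 CPM in histone-rich cells and 1047 ± 49.1 CPM in the other shallow barcodes. Asf1b, a chaperone that brings H3 and H4 to new DNA, was higher by 1.10 ± 0.179 (0.70 ± 0.183 among Peak1-rich barcodes), and Hjurp, the chaperone of the centromeric histone, by 0.81 ± 0.109 (0.59 ± 0.10). Chaf1a, of chromatin assembly factor 1, was higher by 1.13 ± 0.187 and had 0.35 ± 0.182 among Peak1-rich barcodes, which was not called. Of 12 genes for the processing of histone mRNA, 11 were tested and 5 called higher (median 0.28), none of 9 was called among Peak1-rich barcodes, and 1 was higher and 1 lower with scaling to total UMIs. Slbp, the stem-loop binding protein, had 108.2 ± 17.2 CPM in histone-rich cells and 91.2 ± 6.54 CPM in other shallow barcodes (0.57 ± 0.114, and 0.21 ± 0.105 among Peak1-rich barcodes). Eri1, an exonuclease that trims the stem-loop, was higher by 0.80 ± 0.173.

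Among 12 genes of G1 phase and cell cycle entry, 5 were called higher and 3 lower, 2 higher and 1 lower among Peak1-rich barcodes, and 3 higher and 3 lower with scaling to total UMIs. Ccne1, cyclin E1 of the start of S phase, had 21.32, 22.97 and 36.22 CPM in Fpr2f/f and 22.97, 28.63 and 17.26 CPM in Fpr2VKO, against 7.453 to 10.62 CPM in the other shallow barcodes (1.83 ± 0.241, edgeR adjusted p = 5.34e-12, and 0.87 ± 0.221 among Peak1-rich barcodes). Ccnd2, cyclin D2 of G1 phase, was lower in every library, with 173.5 to 253.1 CPM against 361.9 to 530.7 CPM (-0.75 ± 0.0924, edgeR adjusted p = 2.16e-13, and -0.35 ± 0.0803 among Peak1-rich barcodes). The 2 cyclins thus moved in opposite directions in the histone-rich cells under both comparisons.

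Stem cell markers summed to 1070 ± 326 CPM in histone-rich cells and 1050 ± 356 CPM in the other shallow barcodes. The log2 ratio of these sums was -0.545 in Fpr2VKO replicate 2 and 0.112 to 0.214 in the other 5 libraries. Of 10 genes, 9 were tested and 6 called higher (median log2 fold change 0.63), 2 of 7 among Peak1-rich barcodes, and with scaling to total UMIs 3 were called higher and 1 lower. Smoc2 and Rgmb, both markers of the crypt base, were the 2 called in both, at 1.04 ± 0.115 and 0.94 ± 0.132 against all others and 0.38 ± 0.102 and 0.37 ± 0.124 against Peak1-rich barcodes. Lgr5, the stem cell receptor for R-spondins, had 36.51 ± 14.8 CPM in histone-rich cells and 31.36 ± 10.8 CPM in the other shallow barcodes (0.50 ± 0.174, edgeR adjusted p = 0.0146, called in 9 of 19 alternatives with adjusted p between 0.00367 and 0.925). Olfm4, a stem cell marker that is also free in the suspension, had 481.5 ± 166.0 CPM and 600.5 ± 278.0 CPM and was not called, but was called lower with scaling to total UMIs.

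Transcripts of mature cell types were low. Of the enterocyte genes, 7 could be tested both against all other shallow barcodes and among Peak1-rich barcodes. All 7 were called lower in the first comparison and 6 in the second (median log2 fold change -0.88 there). Sis, the brush border enzyme sucrase-isomaltase, had 19.75 to 80.55 CPM in histone-rich cells and 167.4 to 355.9 CPM in the other shallow barcodes (-1.96 ± 0.139, and -1.28 ± 0.135 among Peak1-rich barcodes). Krt20, a keratin of differentiated epithelium, was lower by a log2 fold change of -2.25 ± 0.144, and Fabp1, a fatty acid binding protein, by -1.15 ± 0.154. Of the 8 epithelial markers, Krt20 among them, 2 were called higher and 5 lower against all other shallow barcodes. Among Peak1-rich barcodes none was called higher and 4 lower, and with scaling to total UMIs none higher and 6 lower. The summed enterocyte level of 428.9 ± 87.1 CPM was below the 1746 ± 315 CPM of barcodes with fewer than 100 UMIs.

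All 8 Paneth genes were called lower (median -2.48), as were 7 goblet genes. The other goblet gene, Spdef, had 11 UMIs in all histone-rich cells, and its call is not counted. The comparison side holds barcodes rich in these transcripts, and the counts were 3 of 8 Paneth genes and 4 of 7 goblet genes among Peak1-rich barcodes. When other barcodes with at least 1% of UMIs in Paneth, goblet, enteroendocrine or T lymphocyte lists were left out on that side, 8 Paneth genes were called higher (median 0.67) and 6 of 7 goblet genes (median 1.36). Defa24, an alpha-defensin of Paneth cells, had 319.8 to 1844 CPM in histone-rich cells against 7597 CPM in barcodes below 100 UMIs, and Muc2, the goblet mucin, 37.4 to 107.4 CPM against 388.5 CPM. Summed Paneth transcripts were at 2809 ± 1300 CPM in histone-rich cells and 15960 ± 9000 CPM in barcodes below 100 UMIs. These pooled levels were thus under that of free RNA. Counted by cell, 31 histone-rich cells and 890 other shallow barcodes held at least 1% of UMIs in the Paneth list. For the goblet list these counts were 66 and 1465. Summed enteroendocrine transcripts ranged from 23.05 to 103 CPM in histone-rich cells, 608.1 to 2208 CPM in other shallow barcodes and 278.8 to 771.4 CPM in barcodes below 100 UMIs. Summed T lymphocyte transcripts were at 7.158 to 53.59 CPM in histone-rich cells and 1722 to 5124 CPM in other shallow barcodes. These genes could pass the limit on UMIs through the other barcodes alone, so their calls are not counted here.

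The 10 genes that the naming rule gave as lower were Rgs1, Gzma, Gzmb, Ccl5 and Ikzf2, which lymphocytes make, the enteroendocrine genes Chgb, Chga and Cck, and the goblet genes Clca1 and Zg16. They are named as the rule gave them, and their tally is not read as a result for the same reason. Gzma had 2.877 to 17.86 CPM in histone-rich cells and 662.4 to 1911 CPM in other shallow barcodes, and Zg16 had 74.79 to 181.9 CPM and 1329 to 3375 CPM. Rgs1 had 0 UMIs in the histone-rich cells of all 6 libraries. Summed tuft cell transcripts ranged from 15.31 to 172.9 CPM in histone-rich cells and 136.5 to 199.6 CPM in other shallow barcodes. The 5 tuft genes tested had 35 to 142 UMIs each in all histone-rich cells. They may have passed the limit through the other barcodes alone, so their calls are not counted either.

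**Figure D4:**
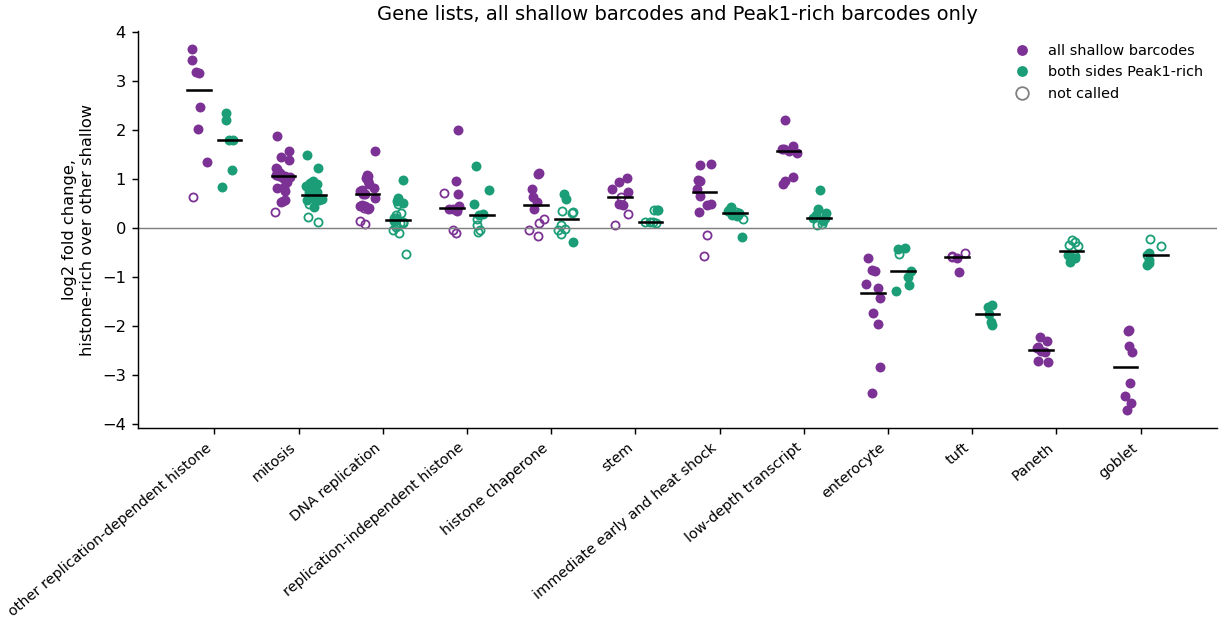
Log2 fold change of histone-rich cells over other shallow barcodes for each tested gene of 12 lists (points, filled where called at an edgeR adjusted p under 0.05; bars, medians), against all other shallow barcodes and with both sides limited to Peak1-rich barcodes. Histone genes of other clusters and mitosis genes keep medians of 1.80 and 0.68 among Peak1-rich barcodes, the DNA replication median goes from 0.70 to 0.16, and the Paneth and goblet medians move towards 0.

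The transcripts that rose with the Hist1h level included a list named for low-depth barcodes. This list was chosen with earlier results of these data known, so its counts are a description. All 9 of its genes were called higher (median 1.57, and 7 of 9 among Peak1-rich barcodes, median 0.20). Summed over the list, the level was 49050 ± 13000 CPM in the other shallow barcodes and 7143 ± 2270 CPM in deep barcodes. Peak1 had 37070 ± 10100 CPM in the other shallow barcodes and 4547 ± 1510 CPM in deep barcodes. In the 43 deep barcodes that reached the Hist1h limit, Peak1 had 76730 ± 21500 CPM. Il31ra, an interleukin receptor gene, had 977.1, 2337 and 2191 CPM in Fpr2f/f and 911, 1136 and 1168 CPM in Fpr2VKO, against 255.6 to 701.5 CPM in the other shallow barcodes (2.21 ± 0.0868). Gm26917, annotated as a long noncoding RNA gene, was higher by 2.03 ± 0.0976, Celf2, an RNA-binding protein, by 1.70 ± 0.0886 and Peak1, a pseudokinase gene, by 1.63 ± 0.0958. These values were 0.77, 0.40, 0.23 and 0.20 among Peak1-rich barcodes, a group that is chosen by Peak1 and Gm26917. Sept5, Gm21887 and Gphn, with Hist2h4, Hist2h2ac and H2afx above, made up the 10 genes named by the size of their rise at a mean of 50 CPM or more.

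Immediate early and heat shock genes, which respond to dissociation and other stress, were higher in 10 of 12 cases (median 0.73), in 8 of 11 among Peak1-rich barcodes (median 0.31, with Hsp90aa1 lower), and in 7 with scaling to total UMIs, where 1 was lower. Atf3, a stress-induced transcription factor, had 477.5 to 871.3 CPM against 233.2 to 483.6 CPM (log2 fold change 1.30 ± 0.0832, and 0.43 ± 0.0625 among Peak1-rich barcodes). Jun, a subunit of AP-1, was higher by 0.98 ± 0.0830 and Dnajb1, a heat shock cochaperone, by 1.30 ± 0.115. Of 8 cell cycle brake genes 1 was called higher, none among Peak1-rich barcodes, and none higher but 3 lower with scaling to total UMIs. Of 8 p53 target genes tested 2 were higher, 1 of 5 among Peak1-rich barcodes and 1 with scaling to total UMIs. Lower calls on that list are not counted, since Trp53inp1, the 1 lower call, had 18 UMIs in all histone-rich cells.

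Deep barcodes held few cells of this kind. Of 5383 barcodes of at least 10000 UMIs, 43 reached the Hist1h limit (0.799%), 0, 25 and 5 in Fpr2f/f and 9, 1 and 3 in Fpr2VKO, and their median depth was 11729 UMIs. They held a median of 18.9% of UMIs in Peak1, Gm26917 and Gm42418, near the 21.5% of the shallow histone-rich cells and far above the 0.766% of all deep barcodes. Fpr2f/f replicate 1 had none, so the comparison left this library out on both sides, its shallow histone-rich cells included. Of 3935 genes tested, 10 were called higher in the shallow cells (0.254%) and none lower with edgeR, where DESeq2 called 4 lower. None of 18 mitosis genes and none of 12 DNA replication genes tested was among them, where a log2 change of 1 was recovered for 48.2% of genes on simulated data. Of the 10, 5 were on the Paneth list and 2 on the goblet list, among them Defa24 (1.31 ± 0.188, edgeR adjusted p = 1.26e-08) and Agr2, a secretory protein of goblet cells (1.54 ± 0.307, edgeR adjusted p = 0.000681). Across alternatives the adjusted p ranged from 1.63e-10 to 0.907 for Defa24 and from 0.000123 to 0.418 for Agr2. Without the library as a block 3 genes were called. Leaving out Fpr2f/f replicate 2 left 8 calls, and Agr2 was then not called (1.49, edgeR adjusted p = 0.141). Leaving out Fpr2VKO replicate 1 left 3 calls and Fpr2f/f replicate 3 left 6, whereas without Fpr2VKO replicate 3 there were 20, 11 higher and 9 lower. With edgeR 1 gene was lower without Fpr2VKO replicate 2, 1 with Hist1h at 1% or above and 2 with scaling to total UMIs.

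The genotypes were compared within the histone-rich cells, on UMIs summed per library. Of 5062 genes, 6 were called (0.119%), 3 higher (0.0593%) and 3 lower (0.0593%) in Fpr2VKO (edgeR quasi-likelihood test). With the replicate number as a block 44 were called (0.869%), 23 higher and 21 lower. This pairing was inferred from weak correlations in the same data and is not given by the labels. The calls that the block added are therefore not independent support. Without Fpr2f/f replicate 2 the unblocked count was 12, and without Fpr2VKO replicate 2 it was 15.

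Mt1 (GRCm38 chromosome 8, 94179082 to 94180327, plus strand), a metallothionein that binds zinc, had 131.5, 191.8 and 164.6 CPM in Fpr2f/f and 645.6, 663.3 and 745 CPM in Fpr2VKO. Its log2 fold change was 2.00 ± 0.161 (edgeR adjusted p = 1.22e-16), and it was called under all 16 alternatives, with adjusted p from 8.63e-42 to 0.0126. All Fpr2VKO libraries were above all Fpr2f/f libraries.

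Vil1 (chromosome 1, 74409376 to 74435559, plus strand), the microvillus protein villin whose promoter drives the Cre, had 152.8, 133.3 and 111.9 CPM in Fpr2f/f and 308.8, 207.6 and 325.1 CPM in Fpr2VKO (1.07 ± 0.183, edgeR adjusted p = 0.000131, 9.97e-07 to 0.986 over alternatives). Olfm4 (chromosome 14, 79984081 to 80023139, plus strand) had 287.8, 365.2 and 381.9 CPM in Fpr2f/f and 627.7, 513 and 713.4 CPM in Fpr2VKO (0.79 ± 0.152, edgeR adjusted p = 0.00132, 9.97e-07 to 0.986 over alternatives). The groups did not overlap for either gene, and the calls stood in 13 and 11 of 16 alternatives.

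Celf2 (chromosome 2, 6539694 to 7509563, minus strand) was lower in Fpr2VKO, with 11470, 11440 and 13390 CPM in Fpr2f/f and 7438, 7957 and 7767 CPM in Fpr2VKO (-0.67 ± 0.108, edgeR adjusted p = 4.3e-05, 1.07e-10 to 0.109 over alternatives). Gm48099 (chromosome 14, 19271274 to 19282822, plus strand) had 152.8, 172.9 and 166.3 CPM in Fpr2f/f and 68.9, 54.88 and 83.42 CPM in Fpr2VKO (-1.30 ± 0.211, edgeR adjusted p = 4.3e-05, 5.26e-07 to 0.736 over alternatives). Ccnb1ip1 (chromosome 14, 50789248 to 50807732, minus strand), which acts in meiotic crossing over, had 422.8, 509.3 and 460.9 CPM in Fpr2f/f and 191.4, 288.7 and 319.3 CPM in Fpr2VKO (-0.84 ± 0.164, edgeR adjusted p = 0.00171, 2.56e-06 to 0.986 over alternatives). The groups did not overlap for these genes either.

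None of these 6 differences was shown to be particular to the histone-rich cells. In the test of whether the genotype difference was the same in histone-rich cells and other shallow barcodes, 0 of 11892 genes (0.0%) passed with edgeR, and 580, under 5% of those tested, had an unadjusted p under 0.05. DESeq2 also gave 0, and 216 at that unadjusted p. On simulated data this test recovered 16.5% of genes with a log2 difference of 1 and 63.6% with a difference of 2. Without Fpr2f/f replicate 2 it called 8 genes: 5 of the Paneth list (Defa17, Defa24, Defa30, Lyz1 and Itln1), AY761184 and Gm14851 had a higher log2 ratio of Fpr2VKO to Fpr2f/f in histone-rich cells than in the other barcodes, and Dclk1 a lower one. It called 1 without Fpr2VKO replicate 2 and 2 without Fpr2VKO replicate 3. The 6 genes called within the histone-rich cells had differences of the same sign in the free RNA: in barcodes below 100 UMIs Mt1 had 181.8 ± 47.6 CPM in Fpr2f/f and 969.8 ± 127.0 CPM in Fpr2VKO (SD, n = 3 each), Olfm4 271.1 ± 23.4 and 604.3 ± 51.9 CPM, and Celf2 3374 ± 1510 and 1707 ± 89.5 CPM. The part of free RNA in these differences was not tested.

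**Figure D5:**
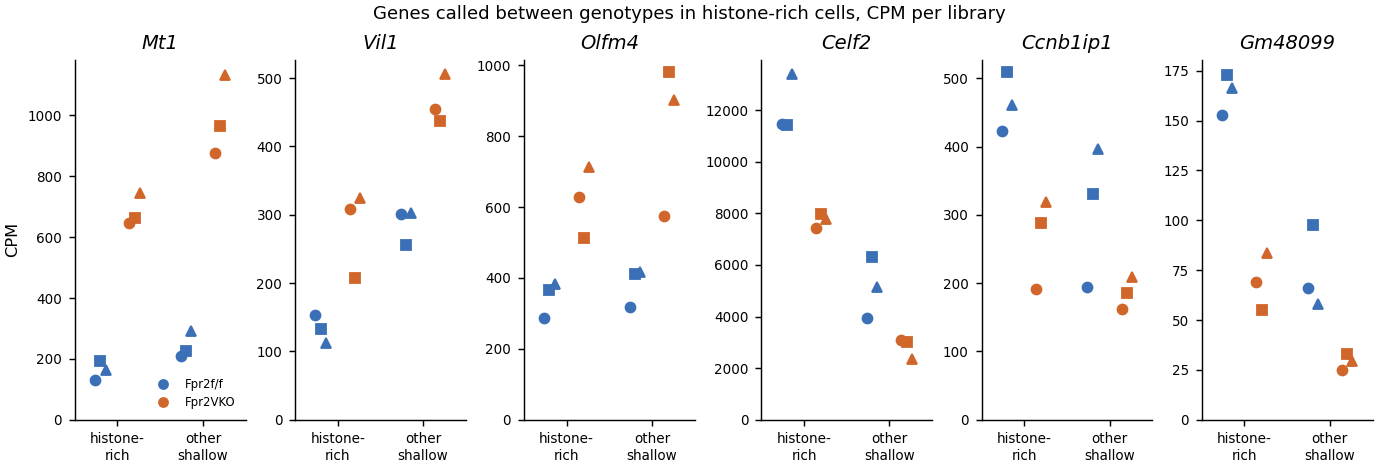
CPM per library of the 6 genes called between genotypes in histone-rich cells, shown for the histone-rich cells and for the other shallow barcodes, with 3 Fpr2f/f and 3 Fpr2VKO libraries per class (circle, square and triangle for replicates 1, 2 and 3). In histone-rich cells the genotypes do not overlap for any of the 6 genes, and the other shallow barcodes differ in the same direction in their means.

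None of 20 mitosis genes (median log2 fold change 0.17, all genes 0.01), 14 DNA replication genes (0.07) or 4 tested genes of other histone clusters (-0.47) was called with or without the block. On simulated data the genotype test recovered 48.8% of genes with a log2 change of 1 and all with a change of 2.

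Most calls that the block added to the lists were in the Paneth, low-depth and ribosomal protein lists. Of 7 Paneth genes tested 4 were called higher in Fpr2VKO with the block (Defa17, Defa30, Ang4 and Itln1, at 1.07, 0.88, 0.87 and 0.79 on the log2 scale) and none without it. Of the 9 transcripts on the low-depth list 6 were called lower with the block (among them Il31ra at -0.73, Camk1d at -0.54, Cdk8 at -0.52 and Cmss1 at -0.47) and 1 without it. The Paneth genes were under the level of free RNA in these cells, as given above.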

How the data were processed

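The deposited files held raw counts of UMIs per gene and barcode for 6 libraries. The authors aligned the reads to mouse build mm10 and counted UMIs with MobiVision, while the submitters' notes name Seurat 4.0.0 for later steps that these files precede. The annotation and its version are not given in the sources used here. Each matrix listed 32285 genes and 2359296 barcodes with no cell calling. Group and replicate number came from the labels.

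Barcodes were chosen by the rule in the text, and UMIs were summed per library, so that the library was the replicate. In R 4.3.3, edgeR 4.0.16 filtered these sums with filterByExpr, scaled them by TMM and gave robust quasi-likelihood tests, and DESeq2 1.42.0 was the other tool. P-values were adjusted over all genes tested, and an adjusted p under 0.05 was a call. The SE of a log2 fold change comes from that fit, and values after ± elsewhere are SD over libraries. Shares were compared with exact permutation tests (scipy 1.17.1). The Hist1h genes and the 6 genes of the rule were taken out before each fit except that of genotype, where 1 Hist1h gene among the 44 calls with the replicate block is not read as a result. Scripts were tested on simulated data, where the recovery for genotype, depth and interaction fits is quoted in the text. The simulation used 1 dispersion for all genes, 0.03 for genotype and 0.02 for the other fits. The fit against other shallow barcodes recovered 76% of genes with a log2 change of 1 and 95.9% with a change of 2. Of its calls on simulated data 7.65% were false.

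The members and gene lists were chosen with earlier results of these data known. Named genes were those of the lists, the 10 leading Hist1h genes, and in each fit up to 10 higher and 10 lower called genes with the largest fold change, a mean of at least 50 CPM and the same side in every library (no overlap, for genotype). The comparisons among Peak1-rich barcodes, without lineage-rich barcodes, with matched depth and with scaling to total UMIs were chosen after seeing the data.

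Same-numbered libraries of the genotypes deviated together (correlations of 0.156, 0.119 and 0.128 over 2406 genes, each above 0.1), from which the replicate numbers were taken to pair the samples. The labels do not say what a number shares. Free RNA was not subtracted, and fewer cells and less RNA per cell cannot be told apart in summed counts. Gene positions are those of build GRCm38.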

Additional observations from a re-analysis of the deposited data

Results flagged for a closer look

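The log2 ratio of summed CPM in histone-rich cells to that in other shallow barcodes was compared between the 6 libraries for 27 gene lists. In 4 of them 1 library lay apart from the other 5 (Dixon's test at 95%), where chance alone would mark about 1 in 20 lists. For the stem list, Fpr2VKO replicate 2 was at -0.545 and the next library at 0.112. For the Notch list, which shares Olfm4 with the stem list, the same library was at -0.716 and the next at -0.171. For the enterocyte list, Fpr2f/f replicate 3 was at -2.7 and the next at -1.84. For the goblet list, Fpr2VKO replicate 3 was at -3.56 and the next at -2.91. Olfm4 had 513 CPM in the histone-rich cells of Fpr2VKO replicate 2 and 979.9 CPM in its other shallow barcodes.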

How the results depend on the processing

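The share of histone-rich cells (Fpr2VKO minus Fpr2f/f) differed by -2.57 to 1.01 percentage points between genotypes when 1 library was left out. The difference was -2.2 points with all kept barcodes of at least 1000 UMIs as the denominator and -0.628 with thinning to 1000 UMIs. Genotype calls (6) were 1 with a mitochondrial limit of 10%, 2 with Hist1h at 1% or above, 44 with the replicate block and 5 to 15 with 1 library left out. Calls against other shallow barcodes (4126) were 2148, 1678, 1508 and 636 with the 10% mitochondrial limit, Hist1h at 1% or above, thinning to 1000 UMIs and Peak1-rich barcodes, and 3248 to 3944 with 1 library left out. Calls against deep barcodes (10) were 0, 2 and 1 under the first 3 of these, 3 with no replicate block and 3 to 20 with 1 library left out. Calls of unequal genotype differences were 0 to 8 with 1 library left out. DNA replication genes called higher (15) were 9 with Hist1h at 1% or above, 9 with thinning and 4 among Peak1-rich barcodes. Histone genes of other clusters called higher (7 of 8 tested, Hist2h2ab, Hist2h3c2 and Hist2h3c1 included) were 4 of 4 tested with thinning and 3 of 3 with the 10% mitochondrial limit. Paneth and goblet genes called lower (8 and 7, Spdef not counted) were 3 and 4 among Peak1-rich barcodes and 0 and 0 without lineage-rich barcodes on the other side. There Clca1 (0.518), Defa24 (0.654), Muc2 (0.573) and Zg16 (0.569) turned positive, as did Gzma (0.238), whose call is not counted, and Olfm4 (-0.296) turned negative. That comparison takes barcodes rich in Paneth, goblet, enteroendocrine or T lymphocyte transcripts from 1 side only. Olfm4 is on none of these lists. Lgr5 was at -0.113 with the 10% mitochondrial limit. Olfm4 was at -0.0657 with no filter on low counts, -0.0164 to 0.186 with 1 library left out (lowest without Fpr2VKO replicate 1) and -0.257 with scaling to total UMIs. The cause of these changes was not tested. The blocks by library or replicate changed no other summary call, and 143 other summary values kept their direction and side. Between 281457 and 2220696 UMIs per library in histone-rich cells limit what could be detected.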

Other observations

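Ribosomal protein genes had no stable direction in histone-rich cells. Of 78 tested against the other shallow barcodes, 49 were called higher and 5 lower (median log2 fold change 0.31), whereas with scaling to total UMIs 24 were higher and 27 lower (median -0.02), and among Peak1-rich barcodes 4 were higher and 9 lower. By genotype none of the 78 was called without the replicate block (median 0.20), and 5 were called higher in Fpr2VKO and 1 lower with it. Of 9 Wnt target genes tested, 4 were called higher and 1 lower against the other shallow barcodes, none of 7 among Peak1-rich barcodes, and 3 higher and 2 lower with scaling to total UMIs. Of 8 Notch pathway genes 3 were higher, none of 6 among Peak1-rich barcodes and 2 with scaling to total UMIs. Dll4 and Atoh1, of the Notch and secretory progenitor lists, had 19 and 35 UMIs in all histone-rich cells and may have passed the limit on UMIs through the other barcodes alone, so lower calls on these lists are not counted. None of 2 secretory progenitor genes was called among Peak1-rich barcodes. All counts are edgeR calls at an adjusted p under 0.05.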
